A study of Caenorhabditis elegans with 2 samples.

Results

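Intronic peaks away from small RNA genes are places inside protein-coding genes of Caenorhabditis elegans where an EGFP fusion of F26F4.8 was recovered. No exon of a protein-coding gene and no annotated tRNA, pseudogenic tRNA, snoRNA, snRNA, rRNA or miRNA gene lay at the summit. Exons of other annotated genes were not excluded. There were 205 such peaks among 1140 in all. They were selected from the union of both pooled thresholded peak lists, with overlapping peaks counted once and the higher signal kept, when the summit lay more than 200 bp from those RNA genes, inside a protein-coding gene of the Ensembl annotation on WBcel235 and in none of its exons. The other peaks of the union comprised 250 exonic and 259 intergenic peaks away from small RNA genes, and 426 peaks within 200 bp of such a gene. Because the lists were cut by a threshold on reproducibility, the signal and the irreproducible discovery rate (IDR) helped to choose the peaks and are given as a description only.

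The study was a chromatin immunoprecipitation and sequencing (ChIP-seq) experiment on whole L4 larvae, aged 48 hours and grown from starved L1 larvae. It had 1 group of 2 biological replicates of strain OP776, which carries wgIs776, an inserted transgene with F26F4.8 tagged by TY1, EGFP and 3xFLAG together with an unc-119(+) marker, in an unc-119(tm4063) background. The fusion was precipitated with an anti-GFP antibody, so both replicates carry the same transgene and no untagged strain was analysed here. All tissues of the larva were pooled in each sample, and a peak does not say in which cells it arose.

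RNA polymerase III transcribes tRNA genes from promoters that lie inside the gene, and the general factor TFIIIC recognises 2 short elements there, the A box and the B box. Copies of tRNA genes and short mobile elements derived from them are scattered through animal genomes, introns included, and many keep recognisable boxes. RefSeq annotates the F26F4.8 product as a protein with a C2H2-type domain, the classical DNA-binding zinc finger. To see whether the label "away from small RNA genes" also holds for the sequence, a window of 100 bp to either side of each summit was searched for box sequences built from the 612 annotated nuclear tRNA genes: GGNNNAGTGGT for the A box and GGTTCGANTCC for the B box, where N is any base, on both strands.

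By annotation the label held for the RNA classes named in the rule, but not for the broad ncRNA class, which had a gene within 200 bp of 19 peaks. By sequence it held in part. An A or B box with at most 1 mismatch lay in 50 of the 205 windows (24.4%, 95% Wilson interval 19% to 30.7%), against 9.51% of 410 windows centred 350 bp to either side of the same summits and 9.42% of 33510 other ranked intronic peaks. These other peaks follow the same position rule, are in the authors' ranked lists and overlap no thresholded peak. Most windows with a match held an A box, 44 (21.5%), against 8.54% of the flanks and 8.78% of the other ranked peaks. A B box was found in 10 windows (4.88%), against 0.976% and 0.955%. An ordered pair was then defined as an A box followed by a B box on the same strand, with 25 to 75 bp between their starts, at most 2 mismatches in each and the sixth base of the B box left free, because the tRNA genes differ among themselves there. Such a pair lay in 46 of the intronic windows (22.4%, interval 17.3% to 28.6%), against 2.68% of the flanks and 3.46% of the other ranked intronic peaks. The same search found a pair in 76.5% of the tRNA genes, each taken with 20 bp on either side. The boxes were built from these same genes, and the stretch searched differs in length from the summit windows.

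The first sequences shown are those of the 4 strongest intronic peaks on chromosomes II, III, IV, V and X. They were taken by signal and do not cover every kind of sequence met among the peaks. They are the windows as above, from the RefSeq WBcel235 genome, read 5′ to 3′ along the box pair where there is one. Capitals mark a repeated 12-base unit in cmk-1, an ordered A and B box pair in lips-10 and zip-7, and a lone B box match in C29E4.15.
cmk-1, chrIV:1831284-1831484, plus strand: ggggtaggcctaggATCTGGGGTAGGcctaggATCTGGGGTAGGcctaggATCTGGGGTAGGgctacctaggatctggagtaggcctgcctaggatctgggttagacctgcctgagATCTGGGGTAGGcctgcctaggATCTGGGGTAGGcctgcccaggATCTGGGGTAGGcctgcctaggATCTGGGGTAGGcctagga
lips-10, chrII:8441613-8441813, minus strand: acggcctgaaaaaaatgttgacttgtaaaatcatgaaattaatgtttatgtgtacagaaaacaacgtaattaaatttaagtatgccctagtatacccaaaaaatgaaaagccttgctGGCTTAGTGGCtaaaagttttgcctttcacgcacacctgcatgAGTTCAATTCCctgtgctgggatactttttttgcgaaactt
zip-7, chrIV:16503691-16503891, minus strand: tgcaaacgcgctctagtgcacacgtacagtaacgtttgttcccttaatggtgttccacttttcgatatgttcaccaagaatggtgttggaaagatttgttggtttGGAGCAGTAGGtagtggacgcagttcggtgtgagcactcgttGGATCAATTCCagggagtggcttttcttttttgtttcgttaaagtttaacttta
C29E4.15, chrIII:7953782-7953982, minus strand: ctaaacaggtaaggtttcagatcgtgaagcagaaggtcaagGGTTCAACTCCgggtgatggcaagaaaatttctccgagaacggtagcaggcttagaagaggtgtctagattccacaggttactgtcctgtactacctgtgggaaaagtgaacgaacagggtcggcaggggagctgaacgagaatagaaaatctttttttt

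The strongest peaks on these chromosomes in which both boxes came within 1 mismatch of the consensus lay in sms-3 and Y105C5A.15. Their windows show the pair in capitals and were taken by signal, not by likeness to tRNA genes. The sms-3 B box carries no mismatch, and a run of T follows it. Only 4 of the 205 windows held both boxes at that stringency (1.95%), against 0 of the 410 flanks and 0.322% of the other ranked intronic peaks. Counting error alone allows 0.928% in the flanks (upper 95% Wilson bound).
sms-3, chrIII:1599045-1599245, plus strand: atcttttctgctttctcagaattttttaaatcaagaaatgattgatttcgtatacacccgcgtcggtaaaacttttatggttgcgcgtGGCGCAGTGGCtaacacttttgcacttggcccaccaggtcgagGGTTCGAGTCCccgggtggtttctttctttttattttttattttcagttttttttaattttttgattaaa
Y105C5A.15, chrIV:15693395-15693595, plus strand: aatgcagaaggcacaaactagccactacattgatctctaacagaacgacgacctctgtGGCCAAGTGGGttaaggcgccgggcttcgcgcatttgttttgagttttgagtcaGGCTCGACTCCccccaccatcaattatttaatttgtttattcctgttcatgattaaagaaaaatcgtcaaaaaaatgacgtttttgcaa

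Many of the windows resembled each other. When the 205 windows were matched to one another with BLAST, 57 fell into 15 groups in which members were linked by at least 80% identity over at least 80 bp. The largest group held 10 peaks, in introns of tpra-1, Y6B3B.1, spe-43, srt-52, C31C9.6, lmd-3, T19C3.6, fbxc-17, trp-1 and Y50D7A.1, and all 10 had an ordered box pair. The hosts have little in common by name: tpra-1 encodes a transmembrane protein, spe-43 a protein needed in sperm, srt-52 a chemoreceptor, fbxc-17 an F-box protein and trp-1 a TRP-family ion channel. The windows of tpra-1 and spe-43 are shown whole, with the pair in capitals. For the other 7 peaks on these chromosomes only the element is shown, from 5 bases before the A box over 75 bases, so that the lines can be read under each other.
tpra-1, chrIV:8964145-8964345, plus strand: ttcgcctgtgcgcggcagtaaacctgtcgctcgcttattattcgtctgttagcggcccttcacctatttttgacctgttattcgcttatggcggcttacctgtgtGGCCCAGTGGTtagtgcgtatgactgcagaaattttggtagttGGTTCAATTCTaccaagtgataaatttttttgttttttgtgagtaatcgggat
spe-43, chrIV:13140917-13141117, plus strand: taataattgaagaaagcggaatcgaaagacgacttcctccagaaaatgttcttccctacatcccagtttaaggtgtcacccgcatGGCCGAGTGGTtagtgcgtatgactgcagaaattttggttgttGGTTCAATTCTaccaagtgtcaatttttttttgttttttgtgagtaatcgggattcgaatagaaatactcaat
srt-52, chrV:53479-53553, plus strand: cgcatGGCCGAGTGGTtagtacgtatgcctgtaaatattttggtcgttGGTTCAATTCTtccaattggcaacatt
C31C9.6, chrII:13658614-13658688, plus strand: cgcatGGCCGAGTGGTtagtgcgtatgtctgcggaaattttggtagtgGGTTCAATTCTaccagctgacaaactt
lmd-3, chrV:8431415-8431489, minus strand: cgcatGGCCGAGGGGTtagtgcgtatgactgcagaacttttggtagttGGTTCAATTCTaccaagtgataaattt
T19C3.6, chrIII:629053-629127, minus strand: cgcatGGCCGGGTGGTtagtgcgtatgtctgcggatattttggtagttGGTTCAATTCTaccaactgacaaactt
fbxc-17, chrII:977271-977345, minus strand: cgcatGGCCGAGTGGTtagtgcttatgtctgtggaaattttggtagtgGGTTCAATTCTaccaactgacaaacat
trp-1, chrIII:8541214-8541288, plus strand: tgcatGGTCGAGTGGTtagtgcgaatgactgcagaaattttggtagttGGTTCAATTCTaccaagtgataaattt
Y50D7A.1, chrIII:302713-302787, plus strand: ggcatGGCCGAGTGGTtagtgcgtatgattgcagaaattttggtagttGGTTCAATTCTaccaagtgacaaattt

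The B box match is the same in all 9 lines, and each A box match is followed by tagt. Identity between linked windows of the group ranged from 80.1% to 97.9%. The genome held 87 loci similar to these windows, of which 70 overlapped a ranked peak and 36 (41.4%) a thresholded one. Ranked peaks covered 29.4% of the genome and thresholded peaks 0.295%. The thresholded peaks at these loci were 10 intronic, 1 exonic, 23 intergenic and 2 near a small RNA gene. Of the 59 loci that kept a pair with at most 1 mismatch in each box, 31 had a thresholded peak (52.5%), against 5 of the 28 loci that did not (17.9%). Leaving out the 10 loci of the group itself, which the rule put there, the counts were 21 of 49 with the pair and 5 of 28 without it. The loci with the pair were also longer, with a median of 256 bp against 139 bp, and the part of length in the difference was not tested.

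The signal of the group was among the higher ones. Signal here is the authors' value per peak in arbitrary units, used only to rank peaks within a list. The tpra-1 peak had a pooled signal of 189, with 97 in replicate 1's own ranked list and no overlapping ranked peak in replicate 2. The spe-43 peak had 170, with 81.3 in replicate 1 and 89.1 in replicate 2, and the srt-52 peak also had 170, with 80.4 and 90.2 in replicates 1 and 2. At the low end, Y50D7A.1 had 89.7, with 55.9 in replicate 1 and 35 in replicate 2. The median of the 10 was 123, against 78.6 for all 205 intronic peaks, and 9 of the 10 had a ranked peak in both replicates.

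**Figure D1:**
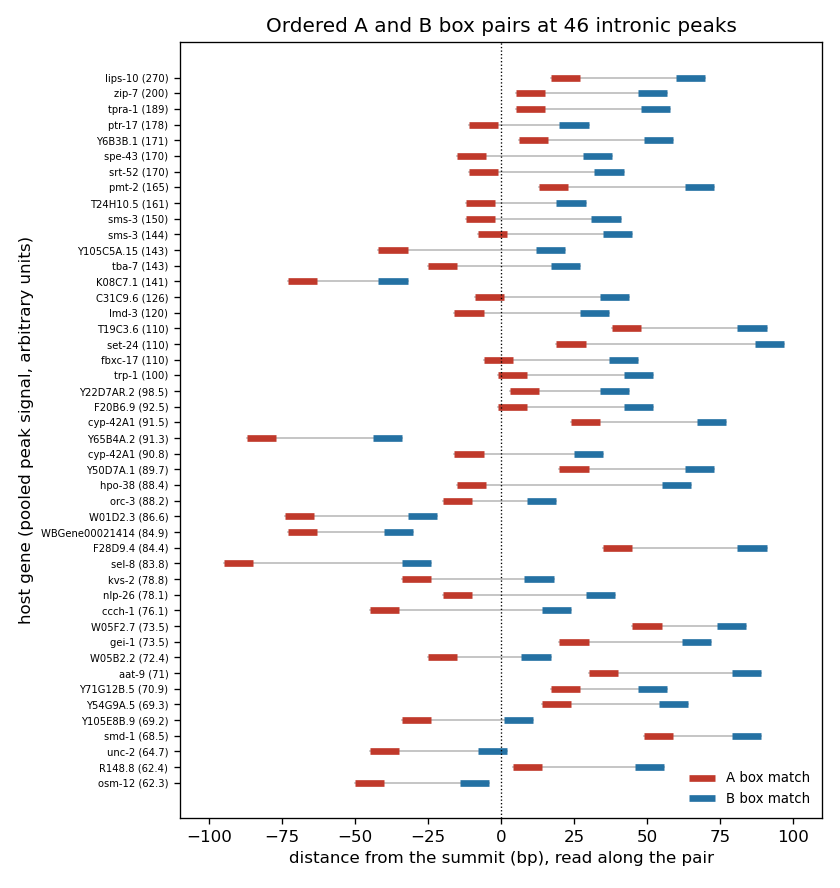
Position of the A box (red) and B box (blue) matches at the 46 intronic peaks with an ordered pair, as distance in bp from the summit read along the pair, with peaks in order of pooled signal from top to bottom. The A box starts a median of 10 bp before the summit and the B box ends a median of 44 bp after it, and many of the pairs cluster at the same spacing, with a median of 43 bp between box starts. All 10 pairs of the largest sequence group have a spacing of 43 bp, so similar windows are counted several times at it.

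Across the 46 peaks with an ordered pair, the A box started at a median of -10 bp and the B box ended at a median of 44 bp from the summit, read along the pair. The summit lay between the start of the A box and the end of the B box in 22 of them, as the plot of box positions shows. The pair ran on the strand of the host gene in 19 of the 46. A run of 15 or more bases identical to an annotated tRNA gene was found in 14 of the 205 windows (6.83%), against 0.561% of the other ranked intronic peaks, and a run of 12 or more in 31 windows (15.1%), against 6.01%.

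A group of 7 peaks was close to identical in sequence, with 94.4% to 100% identity between linked windows. It lay in ptr-17, pmt-2, T24H10.5, K08C7.1, set-24, Y22D7AR.2 and hpo-38. Of these, ptr-17 encodes a patched-related protein and pmt-2 a phosphoethanolamine methyltransferase of phosphatidylcholine synthesis. Pooled signals ran from 88.4 in hpo-38 to 178 in ptr-17, with a median of 141. All 7 counted as having an ordered pair, but each pair had 2 mismatches in its A box and 1 or 2 in its B box, with box starts 31, 50, 68 or 70 bp apart, and none was left when each box was held to 1 mismatch. The window of pmt-2 is shown as the strongest of the group on these chromosomes, with the best pair in capitals.
pmt-2, chrV:4632967-4633167, minus strand: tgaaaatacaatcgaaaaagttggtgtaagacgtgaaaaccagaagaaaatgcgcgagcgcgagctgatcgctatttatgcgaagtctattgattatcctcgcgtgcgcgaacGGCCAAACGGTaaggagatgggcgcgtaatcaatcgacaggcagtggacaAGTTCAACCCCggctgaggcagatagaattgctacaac

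The genome held 23 loci similar to this group, and 13 of them (56.5%) overlapped a thresholded peak, 7 intronic and 6 intergenic. Leaving out the 7 loci of the group itself, which the rule put there, the count was 6 of 16. In replicate 1 the ptr-17, T24H10.5 and pmt-2 peaks had signals of 88.1, 82.9 and 109. In replicate 2 the same peaks had 92.0, 83.7 and 51.9, so that pmt-2 was the highest of these peaks in one replicate and the lowest in the other. The set-24 peak, with a pooled signal of 110, had no ranked peak in replicate 1 and 43.1 in replicate 2.

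Other windows were tandem repeats. A window was called a tandem repeat when at least 60% of its bases equalled the base 1 period further on, for the best period between 2 and 100 bp. This held for 38 of the 205 windows (18.5%, interval 13.8% to 24.4%), against 9.51% of the flanks and 3.31% of the other ranked intronic peaks. In 1 of the 38 an ordered pair was also found. The second largest group, of 8 peaks, lay in srw-100, Y51F10.4, F40E3.5, fbxa-89, C06H5.6 and prp-6, with 2 peaks each in the chemoreceptor gene srw-100 and in Y51F10.4, which encodes a predicted amino acid transporter. Of its 8 windows 5 were called tandem repeats. Sequence like it occurred at 2045 loci, of which 17 (0.831%) overlapped a thresholded peak. The fifth group lay in tir-1, which encodes the worm SARM1 protein and held 2 peaks, and in cua-1, col-52 and oat-1, which encode a copper ATPase, a collagen and an anion transporter. Its 5 peaks shared a unit of about 40 bp, and 10 of 296 similar loci (3.38%) had a thresholded peak. The locus counts of both groups include the loci of their own peaks, which the rule put there. A window of each group is shown with its commonest 12-base unit in capitals.
srw-100, chrV:1713819-1714019, plus strand: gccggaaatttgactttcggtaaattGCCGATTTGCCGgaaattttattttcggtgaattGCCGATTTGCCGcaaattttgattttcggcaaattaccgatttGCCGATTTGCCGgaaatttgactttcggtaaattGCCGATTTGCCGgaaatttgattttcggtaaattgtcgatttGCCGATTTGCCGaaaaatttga
tir-1, chrIII:3897191-3897391, plus strand: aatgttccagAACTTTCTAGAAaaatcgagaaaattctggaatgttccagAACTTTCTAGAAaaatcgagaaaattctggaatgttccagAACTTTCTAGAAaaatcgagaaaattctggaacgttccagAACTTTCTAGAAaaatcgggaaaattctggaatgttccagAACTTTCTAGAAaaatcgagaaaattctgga

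A smaller set held the unit TTAGGC, which the nematode telomere repeats. At least 3 copies on either strand were found in 9 of the 205 windows (4.39%, interval 2.33% to 8.13%), against 0.488% of the flanks and 1.47% of the other ranked intronic peaks. The strongest of the 9 on these chromosomes lay in Y37D8A.26, with a pooled signal of 91.1, 40.3 in replicate 1 and 46.3 in replicate 2, and its window is shown with the unit in capitals. These search settings, like the ordered pair and the tandem measure, were chosen after the sequences had been seen.
Y37D8A.26, chrIII:12856174-12856374, plus strand: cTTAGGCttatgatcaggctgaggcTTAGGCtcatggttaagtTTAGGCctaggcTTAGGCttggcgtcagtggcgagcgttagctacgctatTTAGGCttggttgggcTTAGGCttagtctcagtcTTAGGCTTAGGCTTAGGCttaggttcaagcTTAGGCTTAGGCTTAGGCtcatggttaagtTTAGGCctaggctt

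**Figure D2:**
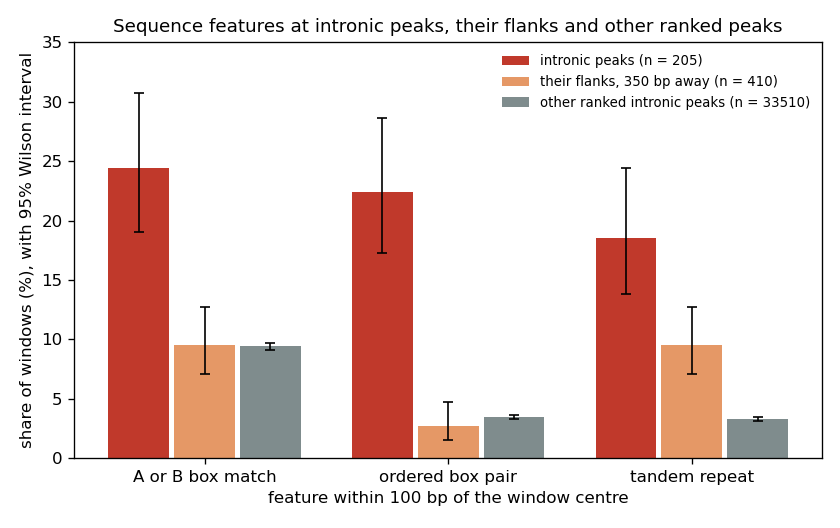
Share of windows of 100 bp to either side, in percent with 95% Wilson intervals, that hold an A or B box with at most 1 mismatch, an ordered box pair or a tandem repeat, at the 205 intronic peaks, in their 410 flanks and at 33510 other ranked intronic peaks. The intronic peaks stand at 24.4%, 22.4% and 18.5%, and each of their intervals lies above those of both comparison sets. The intervals take windows as independent, although 57 of the 205 lie in 15 groups of similar sequence. The ordered pair and the tandem measure were chosen after the sequences had been seen.

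The other listed peaks of the series gave the scale for these shares. An ordered pair lay in 22.4% of the intronic peaks, against 7.60% of exonic peaks, 25.1% of intergenic peaks and 68.1% of the peaks near small RNA genes. Tandem repeats were found in 18.5% of the intronic peaks, 3.60% of exonic peaks, 13.5% of intergenic peaks and 0% of the peaks near small RNA genes. By both measures the Wilson intervals of intronic and intergenic peaks overlapped. No test was made between these sets.

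Near copies elsewhere in the genome were common. A match of at least 80% identity over at least 80 bp, away from the window itself, was found for 109 of the 205 intronic peaks (53.2%, interval 46.3% to 59.9%), against 372 of 1117 other ranked intronic peaks, every 30th along the genome (33.3%, interval 30.6% to 36.1%). The share was 25.2% for exonic and 58.7% for intergenic peaks. A copy of at least 95% identity over at least 150 bp existed for 43 of the intronic peaks (21%), against 5.55% of the comparison set. Reads from such copies can be hard to place, and how reads with several matches were treated is not given in the sources used here. The part of read placement in the signal of these 43 peaks was not tested. For tandem repeats the matches can lie in the same array as the window.

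When each peak was put in the first class that held, 46 had an ordered pair, 37 of the rest a tandem repeat, 48 of those left another near copy, and 74 (36.1%) none of these. The median pooled signal was 91.4 for the ordered pairs, with a range of 62.3 to 270. It was 81.5 for tandem repeats, 74.5 for other peaks with a near copy and 76.9 for the rest. Among the 25 peaks with the highest signal 16 had an ordered pair, and among the 25 with the lowest signal 3 had. The largest sequence group and the group of ptr-17 supplied 10 and 7 of the 46 pairs, with median signals of 123 and 141. Similar windows are thus counted several times in these values. Each replicate's own list gave the pair class the highest median too: 54.7 in replicate 1, against 44.5, 41.3 and 39.5 in the other classes, and 44.9 in replicate 2, against 36.7, 34.7 and 35.3. These lists come from the same reads as the pooled ones, and the pair was defined after the sequences had been seen. The classes overlapped widely in signal, as the plot by class shows.

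**Figure D3:**
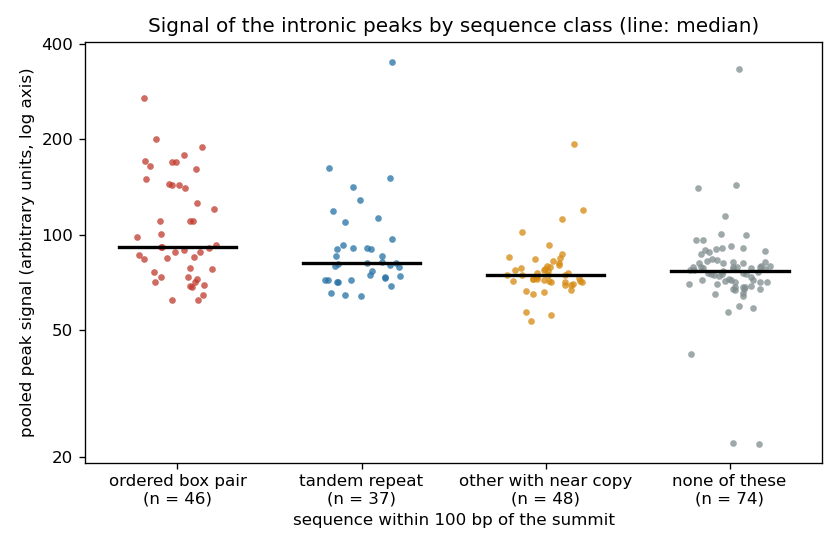
Pooled peak signal in arbitrary units (log axis) of the 205 intronic peaks by sequence class, with the median of each class as a line. Peaks with an ordered box pair have the highest median, 91.4, but the strongest peak of all, in cmk-1 at 351, is a tandem repeat and the second, in ints-8 at 332, is in none of the classes.

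The sequence at the summit was also richer in G and C. Within 50 bp of the summit the median GC content was 48.5% at the intronic peaks, against 36.6% at the other ranked intronic peaks. It was 36.6% in windows of the same size 300 bp to either side of the intronic peaks and 35.6% beside the other ranked peaks. The median was 50% for ordered pairs, 44.6% for tandem repeats, 50% for other peaks with a near copy and 49% for the rest, so each class lay above the flanks. Of all 6-base words, some of those with the widest gap to the other ranked peaks are given as a description. CGCCGC or its reverse complement was present within 50 bp of 11.7% of the summits, against 1.22% of flanks and 2.43% of other ranked intronic peaks. The word CATGCG was present at 9.27% of the summits, against 0% and 1.74%. The word AAAAAT was present at 23.9% of the summits, against 46.8% and 50.7%. The part of base composition in fragment recovery and in read counts was not tested.

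**Figure D4:**
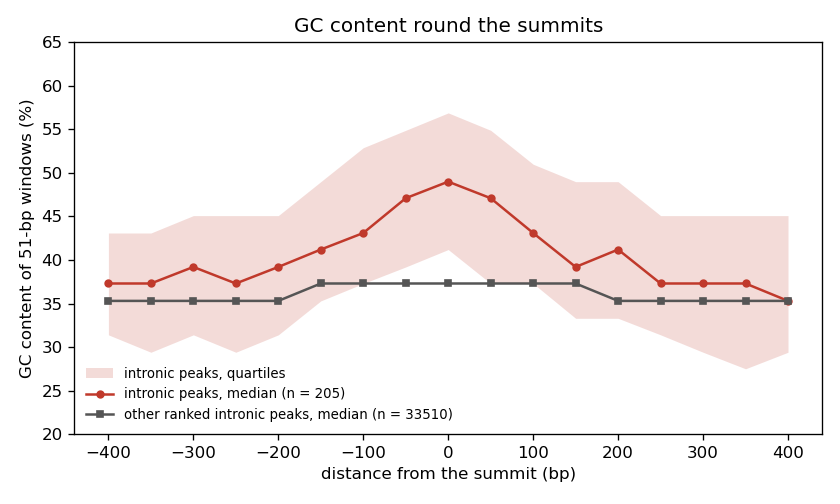
Median GC content, in percent, of 51-bp windows by distance in bp from the summit, for the 205 intronic peaks (red, with quartiles shaded) and the 33510 other ranked intronic peaks (grey). The intronic peaks reach 49% at the summit and come down to between 35.3% and 37.3% at 400 bp to either side, while the other peaks stay between 35.3% and 37.3% throughout.

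The pooled signal of the 205 peaks ran from 22 to 351, with quartiles of 71.6 and 90.8 round the median of 78.6. The median was 74.2 for exonic, 79.9 for intergenic and 110 for peaks near small RNA genes, and 23 for the other ranked intronic peaks. Signal helped to choose the peaks through the threshold on IDR, so these levels follow in part from the choice and nothing is read from them. Of the 205 peaks, 45 were in the conservative pooled list only, 45 in the other pooled list only and the rest in both. Over the whole genome the conservative list kept 0.889% and the other list 0.875% of their ranked peaks, and nothing is read from the members' place in those lists.

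The strongest peaks were each seen in both replicates. The cmk-1 peak, in intron 2 of a calcium/calmodulin-dependent kinase gene, had 351 in the pooled list, 234 in replicate 1 and 111.5 in replicate 2. The ints-8 peak, in intron 5 of an Integrator subunit gene, had 332, 193 and 141 on the same scales, and its summit lay inside rpr-1, the gene for the RNA of RNase P, which the annotation classes as ncRNA and the rule therefore does not exclude. The lips-10 peak, in intron 3 of a lipase-related gene, had 270, 150 and 118. Next came zip-7, which encodes a bZIP protein, with 200, 114 and 93.2, and C29E4.15 with 194, 102 and 87.1. These 5 were above every other intronic peak in pooled signal. Among all ranked peaks of a replicate, cmk-1 stood at rank 19 in replicate 1 and 58 in replicate 2, and C29E4.15 at rank 97 and 120. Signals of different lists are not compared, since no scaling between them is stated.

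Next below tpra-1 and ptr-17 came Y6B3B.1, spe-43 and srt-52 at 171, 170 and 170, followed by pmt-2 at 165, Y32F6A.5 at 162 and T24H10.5 at 161. Pooled signals of 140 to 151 followed for srw-100, both sms-3 peaks, Y105C5A.15, tba-7, Y69A2AR.31, ceh-9, K08C7.1 and W08A12.3. The last of the 25 strongest were Y51F10.4 at 129, C31C9.6 at 126 and lmd-3 at 120.5. Of the annotated products, Y32F6A.5 is a predicted serine carboxypeptidase, sms-3 a sphingomyelin synthase-like protein, tba-7 an alpha-tubulin and ceh-9 a homeobox protein. The sms-3 peaks had 150 and 144 pooled, 76.7 and 73.9 in replicate 1 and 70.3 and 71.2 in replicate 2, and both held an ordered pair. A ranked peak of each replicate lay at 24 of these 25, all but tpra-1.

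A peak's own replicate lists were less firm. A ranked peak of replicate 1 overlapped 200 of the 205 (97.6%) and one of replicate 2 overlapped 203 (99.0%). A thresholded peak of replicate 1 overlapped 42 (20.5%), where that list kept 0.585% of its ranked peaks, and one of replicate 2 overlapped 27 (13.2%), where that list kept 0.610%. Both replicates had a thresholded peak at 22 of the intronic peaks and neither at 158 (77.1%). The pooled lists were made from the same reads, so these shares are not independent of the choice of peaks. By class, thresholded peaks of replicate 1 and replicate 2 lay at 20 and 11 of the 46 peaks with an ordered pair, at 11 and 7 of the 37 tandem repeats, at 4 and 3 of the 48 with another near copy and at 7 and 6 of the 74 others.

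**Figure D5:**
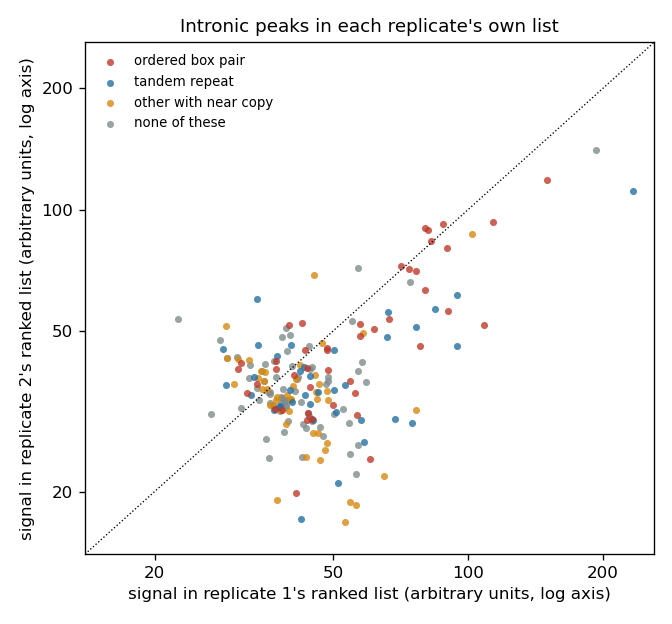
Signal in the own ranked list of replicate 1 (x axis) and of replicate 2 (y axis), in arbitrary units on log axes, for the 198 intronic peaks with a ranked peak in both, coloured by sequence class, with equal values dotted as a guide only, since the lists share no stated scale. The strongest peaks in replicate 1 are also high in replicate 2, while the bulk below that forms a cloud with no rising order.

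Over the 198 peaks with a ranked peak in both replicates, the signals of replicate 1 and replicate 2 had a Spearman rho of 0.15 and a Pearson r of 0.50 on the log2 scale. The points share the pooled threshold that chose them, which draws on the reads of both replicates. Without the 25 peaks of highest pooled signal, rho and r were both -0.23 over 174 peaks. Choosing peaks by a value that combines both replicates, and then leaving out its highest, lowers the correlation between the replicates by itself, so nothing is read from this fall.

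At the threshold, the members with the lowest signal were ador-1 at 22, the third peak of Y43F8B.2 at 22.1 and sos-1 at 42. The members with the lowest −log10 global IDR, nish-1, Y56A3A.6 and pqn-41, had values of 2.004, 2.008 and 2.010. Each value here is the highest among overlapping peaks of both pooled lists, while the signal is that of the peak kept. The value and the signal can therefore come from different entries. Just outside, mdt-8, elt-1 and sox-2 had values of 1.998, 1.997 and 1.995, and the peaks kept had signals of 69.8, 69 and 65.2. The scores of these kept peaks were 613, 804 and 811, against 832 for nish-1, so the mdt-8 peak kept lay further from the threshold. A further 5 intronic ranked peaks passed the IDR threshold of 0.01 but were in no thresholded list. Those with the highest values were str-222 at 2.842, usp-39 at 2.830 and nsph-3.1 at 2.797, with signals of 99.6, 96.2 and 107. The file records name a further input to the thresholding step without saying what it holds.

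The host introns were long at the median, though not in every sequence class. The median intron with a member was 1513 bp, with quartiles of 570 and 3393, against 982 bp for the other ranked intronic peaks, with quartiles of 430 and 2718. By class the median intron was 1848 bp for ordered pairs, 1513 bp for tandem repeats, 858 bp for other peaks with a near copy and 2044 bp for the rest. The summit lay a median of 325 bp from the nearest exon, against 203 bp for the other ranked intronic peaks. The first intron of the transcript held 55 of the peaks (26.8%, interval 21.2% to 33.3%), against 24.6%, and 48 lay within 500 bp of an annotated start site (23.4%), against 21%. Either was true of 37.6%, interval 31.2% to 44.4%, against 34.6%, so that position in the gene differed from the other ranked peaks by less than counting error. The median distance to a start site was 1199 bp, against 1277 bp, and that to the nearest small RNA gene was 35761 bp, against 33577 bp.

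By chromosome, X held 12 of the 205 peaks (5.85%, interval 3.38% to 9.95%), against 16% of the other ranked intronic peaks. Chromosome V held 57 (27.8%, interval 22.1% to 34.3%), against 18.7%. The central 50% of each autosome held 32.6% of the autosomal peaks, against 39.4%, which lies within the interval of 26.4% to 39.5%. The arms of C. elegans autosomes are known to be rich in repeats, and the part of repeats in where the peaks lie was not tested. Of the 12 peaks on X, 2 had an ordered pair, 0 a tandem repeat and 3 another near copy.

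The 205 peaks lay in 192 host genes, and 12 genes held more than 1 peak. Y43F8B.2 held 3, at 73.1, 67.5 and 22.1. The genes with 2 were F42G4.2, Y32F6A.5, Y43F8A.2, Y51F10.4, cua-1, cyp-42A1, egl-9, sms-3, srw-100, tir-1 and unc-2. The cyp-42A1 peaks, in intron 1 of a cytochrome P450 gene, had 91.5 and 90.8 pooled, with 48.4 and 39.8 in replicate 1 and 45.4 and 51.9 in replicate 2, and both held an ordered pair.

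Host genes were counted in 13 lists of gene names, which are partial: mnk-1 and ppm-1.A, for instance, are in no kinase or phosphatase list here, and spe-41 and unc-7 in no channel list. The counts are of listed names only, and no difference between the shares was tested. Chemoreceptors made up 11 of 192 hosts (5.73%), against 5.75% of the 10236 genes with any ranked intronic peak, led by srt-52 at 170 and srw-100 at 151. Listed ion channels made up 5 (2.60%, against 1.90%), with trp-1 at 100 and the potassium channel gene shw-3 at 89.6 the strongest. Synaptic and neurotransmission genes also made up 5 (2.60%, against 1.56%), with cmk-1 first and npr-37, a predicted G protein-coupled receptor gene, at 82.8. Metabolism and detoxification genes made up 5 (2.60%, against 2.38%), led by lips-10 and sms-3. The RNA processing and translation list had 5 hosts (2.60%, against 1.16%), with ints-8 first and hrpk-1 at 84.1.

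Listed protein kinases and phosphatases made up 6 hosts (3.12%, against 1.28%), namely cmk-1, pkc-1 at 79.9, tpa-1, kin-1, daf-2 and ver-1. The remaining lists were smaller. Nuclear hormone receptors had 2 hosts, daf-12 at 72.0 and nhr-70 at 71.0 (1.04%, against 1.72%). Adhesion and matrix genes had hmr-1 at 75.6 and vab-10 at 75.3 (1.04%, against 0.801%). Cytoskeleton and motor genes had tba-7 at 143 and the kinesin gene klp-6 at 87 (1.04%, against 0.742%), and the chromatin and transcription list had set-24 at 110 and the Mediator gene mdt-26 at 96.1 (1.04%, against 1.33%). Homeobox genes had ceh-9 at 142 (0.521%, against 0.615%) and collagens col-52 at 86 (0.521%, against 0.361%), while muscle structure genes had 0 of 192 hosts, against 0.440%. With at most 11 hosts in a list, no list is called apart from the rest, and a peak in an intron does not say that the host gene is regulated.

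Genes of the broad ncRNA class, which the rule does not exclude, lay within 200 bp of 19 intronic peaks (9.27%, interval 6.01% to 14%), against 4.14% of the other ranked intronic peaks, and 13 summits lay inside such a gene. Besides rpr-1 in ints-8, the summit of the F55G1.15 peak, with a pooled signal of 99.5, lay inside yrn-1, a small cytoplasmic RNA gene at chrIV:7499508-7499612. The peaks in klp-6 and ckb-2, with 87 and 72.3, lay inside srpr-2.2 and srpr-1.2, which RefSeq leaves unclassified, and their windows formed a sequence group of their own with 93.7% identity. The tba-7 summit lay inside T28D6.15, and 2 further short ncRNA genes, T28D6.10 and T28D6.13, lay within 24 bp of it. Of the 19 peaks, 2 had an ordered box pair. These genes were named after their values had been seen.

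An intronic peak lay 6054 bp from the tagged gene itself. Its summit, at a pooled signal of 114.6, was in an intron shared by the overlapping genes F26F4.9 and F26F4.2, while F26F4.8 lies at chrIII:4903997-4905473. How far the insert of the transgene reaches is not given in the sources used here.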

How the data were processed

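Both replicates were ChIP-seq samples of L4 larvae, and the analysis started from the authors' deposited peak lists on the ce11 build: 1 ranked and 1 thresholded list per replicate, and 2 of each from pooled reads. Per the labels and the file records, the deposited signal is a value per peak in arbitrary units against a shared input, with no scaling between lists stated, and the deposited score is a whole number that follows the global IDR. The column of −log10 values was deposited as the global IDR, and the authors' thresholded lists stop at an IDR of 0.01. The deposited summit is an offset from the peak start. The aligner, peak caller and read numbers were not given in the sources used here. The depth is therefore unknown, and no limit from depth is set. Nothing says how separate the cultures of both biological replicates were, and no test between groups was possible with 1 group. The 4 columns of per-half signal in the pooled ranked lists, which have no names, were not used.

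Genes came from Ensembl release 115 and pseudogenic tRNA genes and sequence from RefSeq, both on WBcel235, whose chromosome lengths hold all peak coordinates. Coordinates are 1-based. A box and a B box were built from the tRNA genes as 11-base words with a base called where at least 60% of the aligned genes share it. Near copies came from BLAST 2.17.0 with word size 11 and an e-value of 1e-05. Wilson intervals at 95% cover counting error only and take windows as independent, which windows of similar sequence are not. Python 3.11.15 was used with scipy 1.17.1, and the scripts were tested on simulated data. The intronic peaks, the gene lists and the searches were chosen with earlier results of these data known. The host gene lists, the ordered pair, the tandem measure and the count of telomere-like units were set after the data had been seen. Peaks named are the 25 of highest signal, the 2 of highest signal in each host list, the 3 of lowest signal, the 3 unlisted ranked peaks of highest IDR value and the 3 largest sequence groups, and any others were chosen after their values were seen. Sequences from chromosome I are not printed.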

Additional observations from a re-analysis of the deposited data

How the results depend on the processing

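Of 86 recalculations of 8 results, 63 stayed close to the reported value. Close meant within 1.5 times for the number of peaks and within the reported Wilson interval for shares. For the median intron it meant 1096 to 1960 bp, and for the median signal within 4.71. The value 4.71 is the standard deviation between the replicates' own median signals. Those lists share no stated scale, so it is not an error of the pooled median. Some of the 63 came from nearly the same peaks, with 203, 207 or 208 in place of 205. With a global IDR of at most 0.001, 25 intronic peaks were left, their median signal was 161, the share with an A or B box 52%, with a near copy 64% and with an ordered pair 60%, and the median intron was 2214 bp. Leaving out a replicate, by taking the other one's thresholded list alone, gave 30 to 44 peaks, a median signal of 65.4 to 74.7, an A or B box in 38.6% to 46.7%, a near copy in 59.1% to 63.3%, an ordered pair in 40% to 43.2%, a tandem repeat in 23.3% to 25% and a median intron of 2155 to 2164 bp. Those lists hold fewer peaks, and their signals are on scales of their own. An A or B box was found in 6.83% of the intronic peaks with no mismatch, against 3.17% of flanks and 0.907% of other ranked intronic peaks, and in 18% within 50 bp of the summit. An ordered pair was found in 8.29% with at most 1 mismatch in each box, against 0% and 0.301%, and in 13.7% with the sixth base of the B box as in the consensus, against 1.71% and 1.3%. At 90% identity over 100 bp a near copy remained for 31.7%, and with a tandem share of 0.7 repeats were found in 11.7%, against 8.05% of flanks and 1.77% of other ranked peaks. In the searches set against flanks and other ranked peaks, the intronic peaks kept the higher share. No intervals are given at these settings. The gap to the flanks was narrow for the tandem share of 0.7, at 11.7% against 8.05%, and for boxes with no mismatch, at 6.83% against 3.17%. Whether these 2 gaps exceed counting error was not tested. The results on the pair and the tandem repeat, with their alternatives, were added after the data had been seen. No paired analysis was possible because there was 1 group only. The unknown depth and the arbitrary signal units limit all statements on signal to ranks within a list.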
